A study of Mus musculus with 12 samples.

Results

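Periaxin (Prx), dystrophin-related protein 2 (Drp2) and dystroglycan (Dag1) were examined together with 6 further genes of the dystrophin-glycoprotein complex, namely Utrn, Dmd, Dtna, Sgcb, Sgcd and Sgce. These 9 of the 25700 genes in the count table were chosen by function, and each symbol matched 1 mouse gene identifier. Prx, Drp2 and Dag1 stand for the appositions between Cajal bands. The 6 further genes were added as dystrophin-family proteins and their partners, and are not all taken as parts of the appositions. The libraries came from mouse sciatic nerves taken at P5, postnatal day 5. All animals were P0Cre-/+: ReYFP Tg/+: βAct-DsRed Tg/+ on the C57bl/6J background, so the 3 groups differ only by the sorting gate and there is no group without the transgenes. P0Cre switches on eYFP in Schwann cells (SCs), whereas DsRed marks all cells. The allSC gate took all eYFP-positive SCs, the mSC gate those with high side scatter (SSC-A) and the nmSC gate those with low side scatter, and the study took the last 2 gates as enriched in myelinating and not-myelinating SCs. Each gate has 4 libraries with the mouse numbers 1 to 4, and each library came from 1 mouse of either sex, with the sex of a library not used here.

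A myelinating SC keeps most of its outer cytoplasm in channels called Cajal bands. Between the bands, the outer membrane is pressed against the outermost turn of myelin at appositions that hold periaxin, DRP2 and dystroglycan. Dystroglycan spans the membrane and binds laminin of the basal lamina outside, DRP2 binds its tail inside, and periaxin clusters DRP2. Utrophin and the short dystrophin Dp116 are the other proteins of the dystrophin family found in SCs, the sarcoglycans are transmembrane partners of dystroglycan, and dystrobrevin binds dystrophin-family proteins. Loss of periaxin function causes a demyelinating Charcot-Marie-Tooth neuropathy. Counts per gene sum all isoforms, so L- and S-periaxin, or Dp116 and full-length dystrophin, are not told apart.

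The 250 bases before the transcription start of Prx and Dag1 are shown because these are the scaffold and the laminin receptor of the complex, both were higher in every mSC than in every nmSC library, and their windows overlap no annotated exon. The Prx window is chr7:27499074-27499323 on the plus strand and the Dag1 window is chr9:108263959-108264208 on the minus strand (RefSeq, GRCm38.p6, each printed 5′ to 3′ on its own strand). Capitals mark the letters searched, on both strands: an EGR core (GCGTGGG), a SOX core (ACAAAG), a TEAD core (GGAATG) and an SP box (GGGCGG).
Prx: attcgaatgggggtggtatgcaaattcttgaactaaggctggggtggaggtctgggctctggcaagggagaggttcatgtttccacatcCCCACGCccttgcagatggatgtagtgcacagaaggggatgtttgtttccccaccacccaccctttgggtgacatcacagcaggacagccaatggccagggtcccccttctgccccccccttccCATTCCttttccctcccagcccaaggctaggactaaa
Dag1: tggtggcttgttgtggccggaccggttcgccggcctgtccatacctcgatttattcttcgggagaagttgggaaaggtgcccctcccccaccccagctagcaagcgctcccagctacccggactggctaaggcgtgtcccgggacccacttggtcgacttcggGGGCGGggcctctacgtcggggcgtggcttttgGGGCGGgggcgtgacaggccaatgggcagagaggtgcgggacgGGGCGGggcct
The Prx window held an EGR core on the opposite strand, 161 to 155 bases before the start, and a TEAD core on the opposite strand, 37 to 32 bases before it. Among the 250-base windows of 32851 promoters, 4.30% held the EGR core and 12.6% the TEAD core. The Dag1 window held 3 SP boxes, at 87 to 82, 54 to 49 and 11 to 6 bases before the start, and 32.7% of all windows held at least 1. Dag1 has a second start entry, whose window (chr9:108263816-108264065) is not printed and has 143 bases in annotated exons. Before that start the same 3 boxes lie at 230 to 225, 197 to 192 and 154 to 149 bases. The SOX core, present in 16.5% of all windows, was in neither of the 2 printed windows. GC content was 56.4% in the printed Prx window and 67.6% in the printed Dag1 window, against a median of 52.4%. These letter matches are a description of the windows. Binding was not measured.

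Counted reads per library ranged from 8180927 to 13077387 in nmSC, from 10092477 to 14482001 in allSC and from 10777161 to 16918122 in mSC. Levels are given as CPM (counts relative to the size of the library) after scaling with edgeR's TMM factors, whose range was 0.744 to 0.871 for mSC and 1.16 to 1.28 for nmSC. This scaling matters here. With total counts alone, the median over the 18597 tested genes of the mSC to nmSC log2 fold change went from -0.16 to -0.73, and the called genes from 3792 higher and 3748 lower in mSC to 1443 higher and 10421 lower. The mSC library of replicate 4 stood apart from its gate: 5.41% of tested genes lay at least 1 log2 unit from the mean of the other mSC libraries, against 0.263% to 3.31% in the other mSC libraries. Where calls of the complex or its partner lists change without it, both values are given. The myelin genes Mbp, Pmp22, Ncmap and Mag were higher in mSC by log2 fold changes of 2.00 to 3.61, and Egr2, the myelin transcription factor, by 0.50 (-0.061 with total counts, adjusted p = 0.725). The immature SC and proliferation genes Ngfr, Ncam1, L1cam, Mki67 and Top2a had log2 fold changes of -2.61 to -4.20. In bulk libraries, fewer cells of a type and less RNA per cell cannot be told apart.

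Between the mSC and nmSC gates, all 9 genes passed the test (edgeR's quasi-likelihood test, adjusted p under 0.05 over all tested genes). Transcripts of Prx, Drp2, Utrn, Dmd, Dtna, Dag1, Sgcb and Sgce were higher in mSC and those of Sgcd were lower. The background was high in this comparison, with 20.4% of tested genes called higher in mSC and 20.2% called higher in nmSC. For the same 8 genes every mSC library lay above every nmSC library, as it did for 16.8% of all tested genes. The median log2 fold change of the 9 genes was 1.18, against -0.16 over all tested genes. With total counts in place of TMM, 6 genes were called higher and Sgcd lower, Sgce lost its call and Dmd turned to -0.094. Over the whole table, 1443 genes were then called higher and 10421 lower. With replicate 4 of mSC left out, all 9 calls remained.

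**Figure D1:**
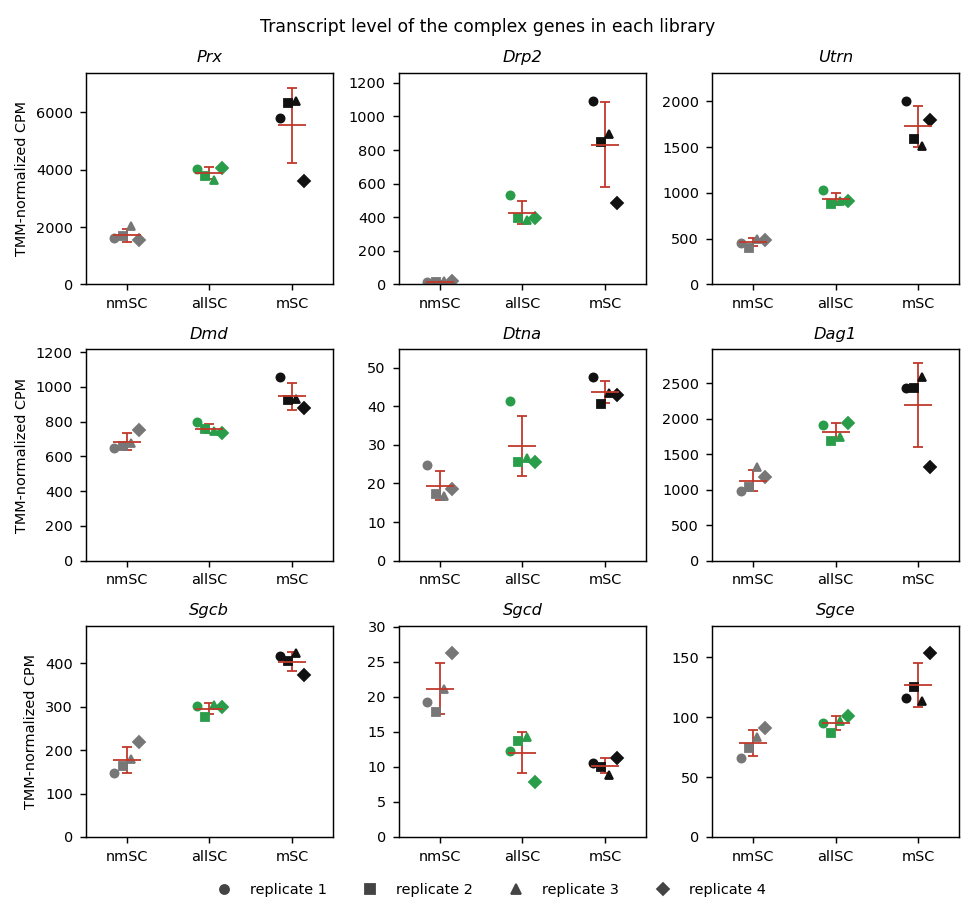
TMM-normalized CPM (y axis, linear, from 0) of each of the 9 genes in every library of the nmSC (gray), allSC (green) and mSC (black) gates, with a marker shape for each mouse number and the mean ± SD (n = 4) in red. The mSC libraries lie above the nmSC libraries for all genes except Sgcd, and replicate 4 of mSC is the lowest mSC library for Prx, Drp2, Dmd, Dag1 and Sgcb.

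Prx (ENSMUSG00000053198, chromosome 7 from 27499324 to 27520214, plus strand, GRCm38) encodes the PDZ-domain scaffold that gives the complex its place at the appositions. In replicates 1 to 4 its level was 1618, 1680, 2052 and 1535 CPM in nmSC, 4041, 3796, 3639 and 4070 CPM in allSC, and 5823, 6335, 6409 and 3618 CPM in mSC. Every mSC library exceeded every nmSC library, but replicate 4 of mSC lay just below the lowest allSC library. For mSC against nmSC the log2 fold change was 1.69 (standard error, SE, 0.161, adjusted p = 6.97e-08), a 3.22-fold difference, and it was 1.85 without replicate 4 of mSC. The exons of an antisense gene, Gm15541, overlap those of Prx. That gene was not analysed here, and reads from it could not be separated without strand.

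Drp2 (ENSMUSG00000000223, chromosome X from 134404551 to 134456573, plus strand), whose product joins periaxin to dystroglycan, had the largest difference of the 9 genes. Its level was 13.8, 12.9, 20.04 and 22.2 CPM in nmSC, 533, 396, 385 and 397 CPM in allSC, and 1093, 846, 897 and 486 CPM in mSC. The nmSC libraries were far below all others, while replicate 4 of mSC fell within the range of allSC. Its mSC to nmSC log2 fold change was 5.58 (SE 0.253, adjusted p = 3.47e-12), a 47.9-fold difference with a 95% interval of 5.08 to 6.08 on the log2 scale, and it was 5.77 without replicate 4 of mSC.

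Utrn (ENSMUSG00000019820, chromosome 10 from 12382188 to 12869365, minus strand) encodes utrophin, the dystrophin homolog that binds both actin and dystroglycan. Its level was 453, 401, 498 and 488 CPM in nmSC, 1037, 877, 910 and 914 CPM in allSC, and 2007, 1585, 1518 and 1798 CPM in mSC. The 3 gates did not overlap, and replicate 4 of mSC lay within the range of the other mSC libraries. The difference of mSC from nmSC was 1.91 on the log2 scale (SE 0.126, adjusted p = 3.69e-10).

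Dmd (ENSMUSG00000045103, chromosome X from 82948870 to 85206141, plus strand) is the dystrophin gene, from which SCs are known for the short product Dp116. Its level was 648, 660, 678 and 754 CPM in nmSC, 799, 759, 748 and 734 CPM in allSC, and 1057, 923, 930 and 876 CPM in mSC. The mSC libraries were the highest throughout, and the nmSC and allSC libraries overlapped. For mSC against nmSC the log2 fold change was 0.47 (SE 0.108, adjusted p = 0.00194), the smallest of the 9 genes in size, and with total counts it was -0.094 (adjusted p = 0.441). Measured from the median of all tested genes it was above that median under both scalings, by 0.63 with TMM and by 0.63 with total counts.

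Dtna (ENSMUSG00000024302, chromosome 18 from 23415135 to 23659715, plus strand) encodes α-dystrobrevin, which binds dystrophin-family proteins and syntrophins. It was a low gene, with 24.9, 17.4, 16.7 and 18.5 CPM in nmSC, 41.4, 25.5, 26.6 and 25.6 CPM in allSC, and 47.6, 40.7, 43.5 and 43.0 CPM in mSC. Replicate 1 was the highest library in each gate. For mSC against nmSC the log2 fold change was 1.18 (SE 0.172, adjusted p = 1.86e-05). An antisense gene, Gm47898, overlaps its exons and was not analysed here.

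Dag1 (ENSMUSG00000039952, chromosome 9 from 108204634 to 108263958, minus strand) encodes both subunits of dystroglycan. Its level was 983, 1035, 1316 and 1186 CPM in nmSC, 1912, 1695, 1746 and 1936 CPM in allSC, and 2439, 2431, 2591 and 1318 CPM in mSC. The other mSC libraries lay close together above all other libraries, whereas replicate 4 of mSC lay below the allSC range and barely above the highest nmSC library. For mSC against nmSC the log2 fold change was 0.96 (SE 0.171, adjusted p = 1.65e-04), and it was 1.14 without replicate 4 of mSC.

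The sarcoglycans did not move as a group. Sgcb (ENSMUSG00000029156, chromosome 5 from 73632749 to 73647790, minus strand), for β-sarcoglycan, had 148, 164, 180 and 219 CPM in nmSC, 302, 276, 304 and 299 CPM in allSC, and 416, 406, 423 and 372 CPM in mSC. The gates did not overlap, and the mSC to nmSC log2 fold change was 1.19 (SE 0.125, adjusted p = 2.66e-07). Sgce (ENSMUSG00000004631, chromosome 6 from 4674350 to 4747207, minus strand), for ε-sarcoglycan, the form that stands in for α-sarcoglycan outside striated muscle, had 66.3, 73.9, 83.2 and 90.97 CPM in nmSC, 95.5, 86.6, 97.1 and 101 CPM in allSC, and 116, 125, 114 and 153 CPM in mSC. Replicate 4 was the highest library of each gate. Its log2 fold change was 0.69 (SE 0.133, adjusted p = 3.72e-04), and with total counts it was 0.12 (adjusted p = 0.331). Sgcd (ENSMUSG00000020354, chromosome 11 from 46896253 to 47988969, minus strand), for δ-sarcoglycan, went the other way, with 19.2, 17.9, 21.1 and 26.2 CPM in nmSC, 12.2, 13.7, 14.3 and 7.85 CPM in allSC, and 10.6, 10.002, 8.86 and 11.2 CPM in mSC. Every nmSC library was above every library of the other gates, and the mSC to nmSC log2 fold change was -1.06 (SE 0.187, adjusted p = 1.52e-04).

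The allSC gate holds cells of both other gates, and its comparisons with them share the allSC libraries. Against allSC, 7 of the 9 genes were called higher in mSC, where 8.76% of tested genes were called higher in mSC and 8.80% higher in allSC. Drp2 (log2 fold change 0.96, SE 0.207, adjusted p = 0.00305) and Utrn (0.89, SE 0.122, adjusted p = 3.33e-05) differed most, and Dtna, Prx, Sgcb, Sgce and Dmd followed with log2 fold changes of 0.55, 0.51, 0.45, 0.42 and 0.32. Dag1 (0.27, 95% interval -0.06 to 0.60) and Sgcd (-0.25, 95% interval -0.62 to 0.12) did not pass. Dag1 passed once replicate 4 of mSC was left out (0.48, adjusted p = 0.00309). Dmd was at the threshold (adjusted p = 0.0491) and lost its call with the mouse number as a block (0.32, adjusted p = 0.0761). Its call was also lost in a fit of only these 2 gates (0.27, adjusted p = 0.0828). The same happened with no filter on low counts (adjusted p = 0.0674) and with a filter of 1 CPM in 4 libraries (adjusted p = 0.0525). Dmd did not pass either without any 1 of the allSC replicates, mSC replicate 1, 2 or 3 or nmSC replicate 2 (adjusted p between 0.0635 and 0.120). Prx lost its call in a fit of only these 2 gates (0.48, adjusted p = 0.0797). The same held for Prx without allSC replicate 1, 2 or 3 or mSC replicate 2 or 3 (adjusted p between 0.0536 and 0.0878). Dtna lost its call in the 2-gate fit and without allSC replicate 2, 3 or 4. Sgce lost its call without allSC replicate 1, 2, 3 or 4 or mSC replicate 2, and Sgcb without allSC replicate 2. The count of 7 was not stable: it was 2 with total counts (Drp2 and Utrn), where Sgcd was called lower (-0.56, adjusted p = 0.0378), and the called genes over the whole table went from 1630 higher and 1636 lower in mSC to 415 and 3985. It was 4 in a fit of only these 2 gates, 4, 2, 3 and 4 without allSC replicates 1, 2, 3 and 4, 4 without mSC replicate 2, and 8 without mSC replicate 4.

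Between nmSC and allSC, 6 genes were lower in nmSC, where 7.54% of tested genes were called higher in allSC, and Sgcd was higher in nmSC, where 2.83% were called in that direction. Drp2 was lower in nmSC by a log2 fold change of -4.62 (SE 0.243, adjusted p = 1.42e-10), followed by Prx at -1.17, Utrn at -1.02, Sgcb at -0.73, Dag1 at -0.69 and Dtna at -0.62. Sgcd stood at 0.81 (SE 0.184, adjusted p = 0.00621). Dmd (-0.15, 95% interval -0.36 to 0.06, adjusted p = 0.483) and Sgce (-0.27, 95% interval -0.53 to -0.01, adjusted p = 0.247) did not pass. Dtna lost its call without allSC replicate 1 (-0.42, adjusted p = 0.128) or without nmSC replicate 2, 3 or 4 (adjusted p between 0.0642 and 0.0833). With total counts, Dag1 (-0.44, adjusted p = 0.104) and Dtna (-0.36, adjusted p = 0.192) lost their calls, which left 4 genes lower in nmSC. The called genes over the whole table then went from 526 higher and 1402 lower in nmSC to 2207 and 744.

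**Figure D2:**
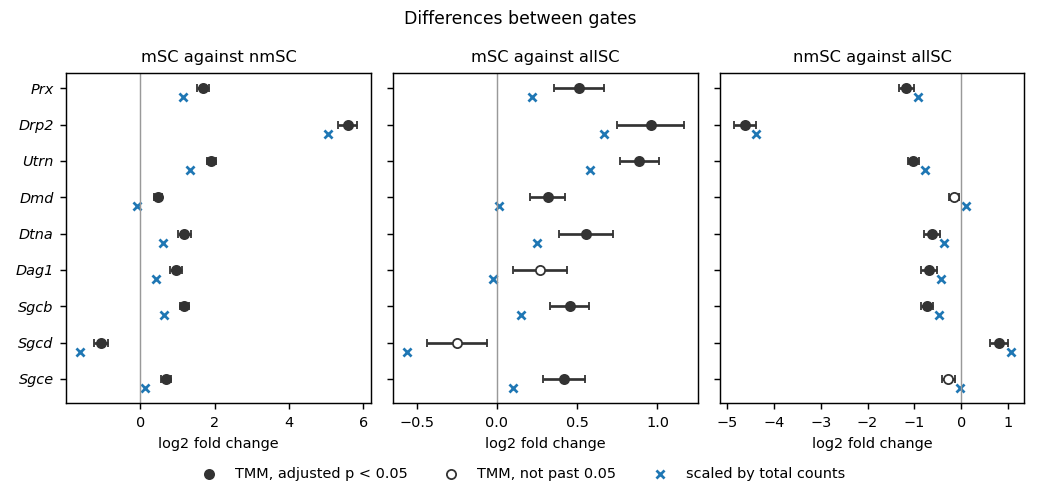
Log2 fold changes (x axis) of the 9 genes in the 3 comparisons of gates. Circles give the TMM-scaled estimate with its standard error, filled where the edgeR adjusted p was under 0.05, and blue crosses give the same difference with libraries scaled by total counts. Drp2 stands far from the other genes in both comparisons with nmSC, and the crosses of Dmd, Dag1 and Sgce come close to or cross 0.

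On the linear CPM scale, the allSC mean lay at a median of 50.5% of the way from the nmSC mean to the mSC mean. It lay at 56.6% for Prx and 50.5% for Drp2, at 65.0% for Dag1 and at 51.9% for Sgcb. It lay lower for Dtna (42.7%), Utrn (37.4%), Sgce (33.9%) and Dmd (28.7%), and highest for Sgcd (83.2%). The SD over the allSC libraries was between 5.38 and 31.9 percentage points, so most neighbours in this order are within their spread. These positions depend on the scaling. With total counts the median was 72.2%, and the values were 115% for Dmd, 106% for Dag1 and 16.6% for Sgce. Each position is divided by the difference between mSC and nmSC. With total counts edgeR did not call that difference for Dmd (log2 fold change -0.094, adjusted p = 0.441) or Sgce (0.12, adjusted p = 0.331). Their positions under that scaling are therefore not to be read as places between the 2 gates.

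Levels can be set against each other only per length. With the union of exons as the length, RPKM values (CPM per kilobase of exon) in mSC were 994 ± 235 (SD, n = 4) for Prx and 345 ± 92.7 for Dag1. Utrn (101 ± 13.0), Sgcb (99.7 ± 5.57) and Drp2 (97.1 ± 29.6) came next and did not differ beyond their spread. Dmd followed at 39.8 ± 3.25, Sgce at 11.98 ± 1.72, Dtna at 2.58 ± 0.169 and Sgcd at 1.23 ± 0.123. In nmSC the order was Prx (309 ± 40.9), Dag1 (178 ± 23.8), Sgcb (43.8 ± 7.49), Dmd (28.8 ± 2.00), Utrn (26.9 ± 2.55), Sgce (7.40 ± 1.02), Sgcd (2.56 ± 0.441), Drp2 (2.02 ± 0.535) and Dtna (1.14 ± 0.223). Dmd and Utrn, and Sgcd and Drp2, were within their spread. Drp2 thus stood in place 8 in nmSC and in place 5 in mSC. The order depends on the length used: with the mean transcript length Dag1 (393 RPKM) was above Prx (361 RPKM) in nmSC, while Prx was the highest in mSC with each of the 3 lengths tried.

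The ratio of 2 genes within a library does not depend on how libraries are scaled. In all, 9 ratios are given, compared between 4 mSC and 4 nmSC libraries by a two-sided exact permutation test, for which the smallest possible p is 0.0286. The adjusted p was 0.0312 for each of the 9 ratios, adjusted over the 12 ratios computed, and their groups did not overlap. The test shuffled the libraries of both gates freely and did not use the mouse number, which pairs them. An exact test that keeps the 4 pairs cannot reach a p this low, and none was run. These p-values therefore treat the libraries as independent, and the separation of the groups is a description. Between the proteins of the dystrophin family, the log2 ratio of Drp2 to Utrn rose from -3.77 ± 0.269 (SD, n = 4) in nmSC to -0.11 ± 0.523 in mSC, and that of Drp2 to Dmd from -3.87 ± 0.308 to 1.23 ± 0.409. The ratio of Utrn to Dmd rose from -0.10 ± 0.120 to 1.34 ± 0.148. Per kilobase, Drp2 was the least abundant of these 3 genes in nmSC with each of the 3 lengths tried. In mSC it stood near Utrn and above Dmd with the union of exons, but with the mean transcript length Drp2 (210 RPKM) was below Dmd (328 RPKM) and Utrn (487 RPKM).

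Within the core of the complex, the log2 ratio of Prx to Drp2 fell from 7.28 ± 0.397 in nmSC to 3.38 ± 0.235 in mSC, a 15.0-fold difference. The ratio of Drp2 to Dag1 rose from -6.49 ± 0.244 to -1.84 ± 0.175, and that of Prx to Dag1 from 0.80 ± 0.161 to 1.54 ± 0.0882. In mSC replicate 4, where all 3 genes were low, these 3 ratios were still outside the nmSC range. The ratio of Dtna to Drp2 fell by 4.37 on the log2 scale. Among the sarcoglycans, the ratio of Sgcd to Sgcb fell by 2.24 and that of Sgce to Sgcb fell by 0.51.

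In mSC replicate 4 Prx, Drp2 and Dag1 stood at 0.585, 0.515 and 0.530 of the mean of the other mSC libraries, and the myelin transcription factor Egr2 at 0.704. The myelin genes Mbp, Pmp22 and Ncmap stood at 1.13, 1.25 and 1.78.

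**Figure D3:**
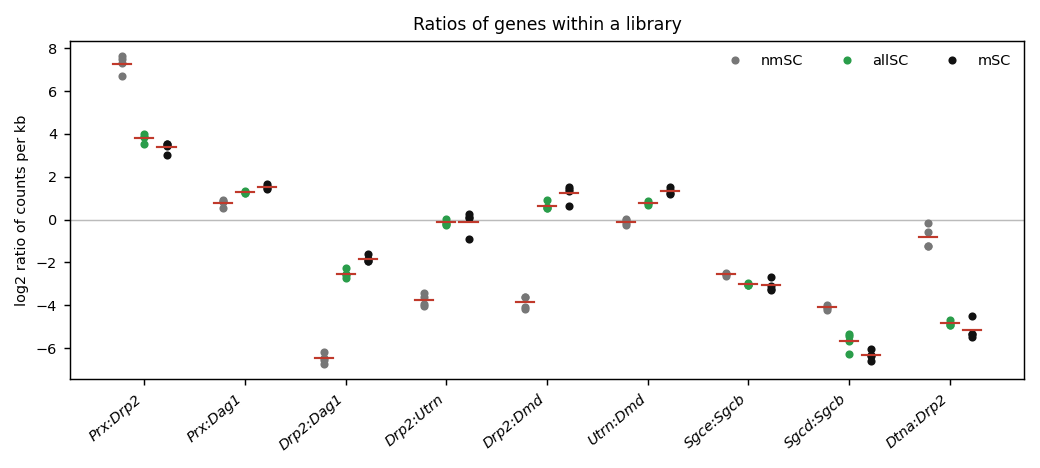
Log2 ratios of counts per kilobase of exon (y axis) of 9 gene pairs within each library of the nmSC (gray), allSC (green) and mSC (black) gates, with gate means in red. The nmSC and mSC libraries are separate for each pair, and the 4 pairs in which Drp2 meets Dag1, Utrn, Dmd or Dtna show differences of 3.66 to 5.10 in size.

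Other subunits of the complex were mostly low or did not move with the 9 genes. Of 8 tested, Sntb2 (0.65, SE 0.149), a syntrophin that ties signalling proteins to the complex, was higher in mSC. Those lower in mSC were Sgca (-1.34), Sntg1 (-1.06) and Dtnb (-0.77), of which Sgca, a sarcoglycan best known from striated muscle, had a mean of only 1.62 CPM in nmSC. Sgca lost its call without mSC replicate 4 (-1.13, adjusted p = 0.0512) or nmSC replicate 3 (-1.21, adjusted p = 0.0508). The most abundant subunit of this list, Sntb1, had 79.9 CPM in nmSC and 62.2 CPM in mSC and did not pass (-0.36, adjusted p = 0.163). The list's median was -0.57, below the -0.16 of all tested genes, of which 20.4% were called higher in mSC and 20.2% lower. With total counts none of the list was called higher (Sntb2 0.077, adjusted p = 0.634) and 6 were called lower, Sntb1 among them (-0.90, adjusted p = 0.00245). That scaling called 10421 of all 18597 tested genes lower.

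Dystroglycan binds laminin through a glycan chain built by a set of transferases. Of 17 tested genes of this pathway, 12 were higher and 2, Pomt1 and Ispd, lower in mSC, where the background was 20.4% and 20.2%. Their median was 0.53, against -0.16 over all tested genes. Dpm2 (0.50, adjusted p = 0.0447) lost its call without mSC replicate 4 (0.22, adjusted p = 0.194). Pomgnt1, which extends the O-mannose core, had the largest difference (1.83, SE 0.143, adjusted p = 4.09e-09), from 65.1 CPM in nmSC to 232 CPM in mSC. B4gat1, which primes the laminin-binding chain, rose from 70.6 to 144 CPM (1.03, SE 0.130, adjusted p = 3.25e-06). With total counts only these 2 genes were called higher, 2 (again Pomt1 and Ispd) were called lower and 6 of the 12 changed sign. Pomk (0.21), Gmppb (0.093), Rxylt1 (0.059) and Pomt2 (0.047) kept their sign without a call. That scaling called 1443 of all 18597 tested genes higher and 10421 lower. The calls of the other genes that were higher in mSC thus rest on the scaling.

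Of 10 tested ligands of dystroglycan, 2 were higher in mSC (Agrn 0.92 and Slit2 0.51) and 3 were lower (Lama4 -0.96, Lama1 -0.76 and Lama5 -0.68). These counts are near the background of 20.4% higher and 20.2% lower. With total counts 0 were called higher and 7 lower, Agrn lost its call (0.39, adjusted p = 0.138) and Slit2 changed sign (-0.04). That scaling called 1443 of all 18597 tested genes higher and 10421 lower. Without mSC replicate 4, 3 were higher and 2 lower, with Lamb2 gained (0.50, adjusted p = 0.145 with it and 0.78, adjusted p = 1.32e-04 without it) and Lama5 lost (-0.48, adjusted p = 0.114). Lamb1, the laminin β chain with the highest level of the list, had 2257 CPM in nmSC and 2180 CPM in mSC (-0.05, adjusted p = 0.866). With total counts it was among the 7 called lower (-0.58, adjusted p = 0.0326). Of 3 tested proteases that act on or near dystroglycan, Mmp14 (-2.63, SE 0.198, adjusted p = 2.41e-09) and Mmp2 (-1.59, SE 0.137, adjusted p = 1.78e-08) were lower in mSC. Both also fell with total counts.

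Among 19 cortical linkers and other laminin receptors, 5 were higher and 4 lower in mSC, where the background was 20.4% and 20.2%. With total counts 3 were higher and 10 lower, where 1443 of all 18597 tested genes were called higher and 10421 lower. Without mSC replicate 4, 8 were higher and 4 lower, with Itgb1 (0.33, adjusted p = 0.0167), Sptan1 (0.59, adjusted p = 0.0013) and Sptbn1 (0.39, adjusted p = 0.00308) gained. With it, Itgb1 was at 0.19 (adjusted p = 0.275), Sptan1 at 0.40 (adjusted p = 0.104) and Sptbn1 at 0.28 (adjusted p = 0.0829). Cav1, for caveolin, a membrane coat protein found in Cajal bands, went from 4.93 ± 1.74 CPM in nmSC to 274 ± 34.3 CPM in mSC (log2 fold change 5.78, SE 0.208, adjusted p = 2.97e-13; SD, n = 4), about as far as Drp2. Ank2 (1.45), Plec (1.05), Msn (0.84) and Itga6 (0.33) were also higher, the last with the opposite sign under total counts (-0.23). Vcl (-1.14), Ank3 (-0.88), Ezr (-0.75) and Itgb4 (-0.69) were lower. Vim, the most abundant of the list with 1687 CPM in nmSC and 1988 CPM in mSC, did not pass (0.24, adjusted p = 0.191). It was called higher without nmSC replicate 3 (0.39, adjusted p = 0.0312) and lower with total counts (-0.33, adjusted p = 0.0206).

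**Figure D4:**
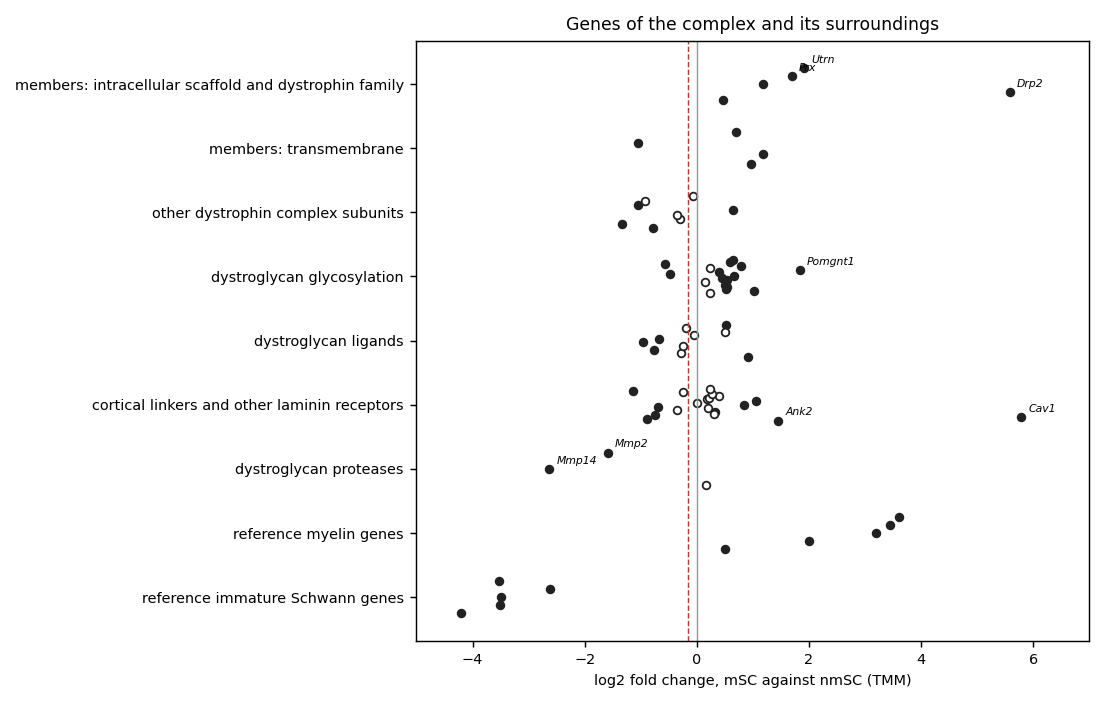
Log2 fold changes between mSC and nmSC (x axis, TMM) of every tested gene in each list (y axis), filled where the edgeR adjusted p was under 0.05. The dashed line is the median of all tested genes (-0.16), and names are given at 1.4 log2 units or more outside the reference lists. Drp2 and Cav1 lie beyond all 5 reference myelin genes plotted, and the lists of other subunits, glycosylation, ligands, linkers and proteases hold genes on both sides of the line.

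The genes whose pattern over the 12 libraries was most like that of Drp2 were Mme, Cav1, Cntf, Sema5a and H2-DMb1, with root mean square differences of 0.284, 0.320, 0.492, 0.526 and 0.546 in centred log2(CPM + 1), among 9403 genes with a mean of at least 10 CPM. Mme went from 28.4 CPM in nmSC to 953 CPM in mSC. For Prx they were Galnt16, Ephb6, Pacs2, Radil and Rap1gds1 (0.0824 to 0.134), and for Dag1 Scap, Adam9, Nsmf, Golga2 and Hspa12a (0.0569 to 0.0918). Without mSC replicate 4, an alternative chosen after seeing the data, 4 of the 5 genes remained for Drp2, but 1 of 5 for Prx and 1 of 5 for Dag1. None of the 9 genes of the complex was among these. The libraries share depth and animals across genes, so these distances are a description.

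The eYFP sort was checked against markers. The summed level of 3 SC lineage genes (Sox10, S100b and Erbb3) was 951 to 1122 CPM in nmSC and 858 to 1145 CPM in mSC, but S100b went from 32.0 to 267 CPM (3.06, adjusted p = 3.04e-11) and Erbb3 from 762 to 440 CPM (-0.79, adjusted p = 0.00318). Since Dmd, Sgca and Sgcd are also genes of muscle, 9 skeletal muscle markers were summed: they came to 42.0 to 56.9 CPM in nmSC and 20.5 to 32.5 CPM in mSC, most of it Ttn (43.5 and 22.3 CPM on average). Myog had a library at 0 in each gate, and Acta1 and Tnnc2 had a library at 0 in mSC. The 6 smooth muscle and pericyte markers summed to 12.3 to 13.5 CPM in nmSC and 26.5 to 41.0 CPM in mSC, and 5 endothelial markers to 8.18 to 13.4 and 20.4 to 29.6 CPM. Tagln (4.73 CPM in nmSC and 24.9 CPM in mSC) and Kdr (5.90 and 20.3 CPM) made up most of these sums in mSC. The lists' median log2 fold changes were -0.63 and -1.04, and of the other genes Myh11 (-1.09), Tek (-1.12) and Pecam1 (-0.95) were called lower in mSC. Pecam1 (adjusted p = 0.0427) lost its call without mSC replicate 4 (-0.90, adjusted p = 0.078). Sums over 5 immune, 5 neuronal, 5 fibroblast and 4 perineurial markers lay between 13.6 and 74.2 CPM in both gates. Single genes differed: 2 neuronal and 1 perineurial gene were called higher in mSC, and 2 neuronal, 2 perineurial and 1 immune gene lower. Over all tested genes these shares were 20.4% and 20.2%. Nefl went from 2.19 to 10.4 CPM and Cldn1 from 24.5 to 10.3 CPM. Rbfox3, 1 of the lower neuronal genes, lost its call without mSC replicate 4 (-1.33, adjusted p = 0.0764). The part of these cells in the differences above was not tested.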

How the data were processed

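RNA of SCs sorted from P5 sciatic nerves was measured by Smart-Seq2, which copies polyadenylated RNA over the whole transcript without strand or molecular identifiers, in 12 libraries from 3 gates. After trimming, the authors used STAR (2.6.1c in the submitters' processing notes, with the build GRCm38.p5) for alignment and deposited raw counts per gene from featureCounts. The paper names a human build for this step, but the gene identifiers are those of mouse. Options for strand and multi-mapping reads are not given in the sources used here. Symbols, positions and exon lengths came from GENCODE M21 (GRCm38), which matched 25664 of 25700 identifiers.

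From the counts, edgeR 4.0.16 in R 4.3.3 gave TMM factors, a filter by gate and quasi-likelihood tests over all 12 libraries, with Benjamini-Hochberg adjustment over the tested genes and a threshold of 0.05. CPM values are TMM-normalized and RPKM divides them by exon length. Ratios used 0.5 count added to each gene and an exact permutation test (scipy 1.17.1) that did not use the mouse number. At 3 counts, the limit for a count of 0, a library shows 0.177 to 0.367 CPM before TMM. Such floors cover counting error only. The steps were tested on simulated data, in which far fewer genes were changed than were called here and allSC was equal to nmSC. For mSC against nmSC, the edgeR fit recovered 10.3% of 1.5-fold, 49.6% of 2-fold and 84.4% of 4-fold changes. Of the calls, 4.49% were false. These rates belong to that setting and were not obtained for the larger difference between the real gates. A gene that did not pass may still differ between gates. Same-numbered libraries carry the same subject number in the labels, taken here as a shared mouse, so the numbers pair the libraries. Their deviations from the gate means correlated between -0.10 and 0.15 over 12 pairs, with 3 of them over 0.1. No libraries of a gate were duplicates, with a chi-square per degree of freedom of 4.03 to 95.7.

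Genes and lists were chosen with earlier results of these data known. Named are the 9 genes, list genes with an adjusted p under 0.05 and an absolute log2 fold change of at least 1 between mSC and nmSC, the most abundant gene of each list, and the 5 genes most like Prx, Drp2 and Dag1. Genes making up a count of 5 or fewer, and Gm15541 and Gm47898, were named after their values were seen. A few genes of the lists, and 3 of the 12 ratios computed, are not reported here, and the lists are counted without them. Alternatives were total counts, DESeq2 1.42.0 size factors and Wald test, other filters, fits of 2 gates, a block for the mouse number, a length correction, other lengths and leaving out each library. Promoter entries were found for 6 of the 9 genes.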

Additional observations from a re-analysis of the deposited data

Results flagged for a closer look

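In 14 of 135 groups of 4 libraries (the level of a named gene in a gate), the highest or lowest library was separated from the others by a gap that exceeds the 95% limit of Dixon's test. Chance flags about 1 in 20 groups, and 10 of the 14 concern mSC replicate 4. Of these 10, 7 were named for a pattern like that of Prx, Drp2 or Dag1 over the same libraries and 1 is Dag1, so they are not independent and their number is not to be read against chance. Among the genes of the complex, 3 of 27 groups were flagged. Dag1 in mSC replicate 4 was at 1318 CPM, where the other mSC libraries were at 2431 to 2591 CPM. In allSC replicate 1, Drp2 was at 533 CPM (others 385 to 397 CPM) and Dtna at 41.4 CPM (others 25.5 to 26.6 CPM).

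In mSC replicate 4, Adam9 (141 CPM), Ephb6 (217 CPM), Galnt16 (66.2 CPM), Golga2 (71.2 CPM), Pacs2 (139 CPM), Pomgnt1 (189 CPM) and Scap (66.9 CPM) were below the other mSC libraries. Cntf (252 CPM) and Ncmap (3017 CPM) were above them there. In allSC replicate 1, Mag was high at 1514 CPM. Ncam1 was high in mSC replicate 3 at 62.4 CPM. These values are given without an explanation.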

How the results depend on the processing

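Between mSC and nmSC, 7 to 9 of the 9 genes were called under every alternative run. Scaling by total counts gave 11864 called genes in place of 7540, turned Dmd to -0.094 and left Sgce at 0.12. With that scaling, 3 of the 9 genes were called between mSC and allSC, Dag1 turned to -0.022 there and Dmd to 0.11 between nmSC and allSC, Vim turned to -0.33, and the median position of allSC moved to 72.2%. Called genes between nmSC and allSC went from 1928 to 2951 with total counts and to 2899 in a fit of only these 2 gates, and members called between mSC and allSC to 4 in a fit of their 2 gates. Lamb1, which passed no test with TMM, was called lower with total counts (-0.58, adjusted p = 0.0326). It turned to 0.012 with DESeq2's size factors and to 0.012 with DESeq2's Wald test. When libraries were left out, Lamb1 ranged from -0.21 to 0.18. Leaving out libraries gave 2 to 8 genes called between mSC and allSC. With the mouse number as a block, the pairing left 9, 6 and 7 genes called in the 3 comparisons (Dmd lost between mSC and allSC, with no other call of the 9 genes changed) and 7173, 2899 and 1774 genes in all. The causes were not tested. Ratios with a library left out compare 3 with 4 libraries and cannot give p below 0.0571 in the permutation test, which ignores the mouse number.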
